A study of Mus musculus with 6 samples.

Results

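Mouse bone-marrow-derived macrophages that had met vesicles of the mould Aspergillus flavus labelled LD-F1 were compared with macrophages kept with PBS, gene by gene. The members are the 2 LD-F1 and the 2 PBS libraries, 4 of the 6 libraries of the series, chosen by their labels, and all 12740 genes with enough counts to be tested out of 41972 entries of the count table. All cells were wild-type (WT) and came from femurs and tibiae of 6-week-old male C57BL/6 mice. They were grown for 6 days with 20% serum and 30% L-929-conditioned medium, which supplies the growth factor M-CSF, and then held for 6 h with PBS or with 20 µg of vesicles per well. The remaining 2 libraries received vesicles labelled LD-F1_b at the same dose and time. The labels call both LD-F1 and LD-F1_b strains of A. flavus but do not explain the suffix. The labels call the replicates biological but do not say whether they came from separate mice, so the p-values measure the spread between these libraries, which may be technical.

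Extracellular vesicles are membrane-bound particles that cells shed, fungi included, and they carry proteins, lipids and RNA. Macrophages meet fungal material through pattern-recognition receptors, and the best-known answer is the transcription of cytokine, chemokine and interferon-response genes. The values below mainly follow other functions of the cell, such as the supply of amino acids, the secretory pathway, growth control, genome maintenance and the cytoskeleton.

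Libraries held 13722215 to 15277997 counts, so that 3 counts in a library corresponded to 0.189 to 0.225 counts per 1000000 (CPM). Pearson's r of log2 CPM between replicates was 0.984 for LD-F1 and 0.991 for PBS. Of 9 macrophage markers 8 were found, and their summed level was 3139 to 3248 CPM, here per library total, in all 4 libraries. Itgam, which encodes the integrin CD11b, had only 0 to 4 counts in each library, and Mertk 1 to 10; Csf1r and Adgre1 did not pass the test. Cd14 rose. The 7 T and NK cell markers and the 5 mast cell markers were at 0 in these libraries, and the neutrophil list summed to 0.544 to 1.46 CPM with 5 of 9 markers at 0. The dendritic cell list summed to 8.75 and 8.57 CPM with LD-F1 vesicles and 3.40 and 3.01 with PBS, through Xcr1, which had 103 and 118 counts against 20 and 18. The other tested members of that list lay lower and were not called. They were Zbtb46, with 9 and 5 counts against 19 and 11, and Cd209a, with 7 and 2 against 8 and 17. The endothelial list summed to 35.9 and 26.6 CPM against 58.3 and 50.1, mostly through Vwf. In bulk RNA, fewer cells of a type and less RNA per cell cannot be told apart.

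A fit with edgeR's quasi-likelihood test called 2707 genes at an adjusted p under 0.05, or 21.2% of those tested. Of these, 1449 (11.4%) were higher and 1258 (9.87%) lower with LD-F1 vesicles. Of the called genes, 545 (4.28% of those tested) differed by 1 or more on the log2 scale, 351 upward and 194 downward. Most changes were moderate: the median log2 fold change was 0.60 among genes called higher and -0.60 among those called lower, and the smallest called was 0.25 in size. Genes called higher took 27.9% of the counts with LD-F1 vesicles and 19.8% with PBS, and genes called lower took 7.5% and 11.7%. With library totals alone in place of TMM scaling the share of higher genes among those called was 33.6% in place of 53.5%, and the median of all genes moved from 0.01 to -0.10 on the log2 scale. Without PBS replicate 1 or PBS replicate 2, 1213 and 1289 genes were called, and without LD-F1 replicate 1, 4497.

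**Figure D1:**
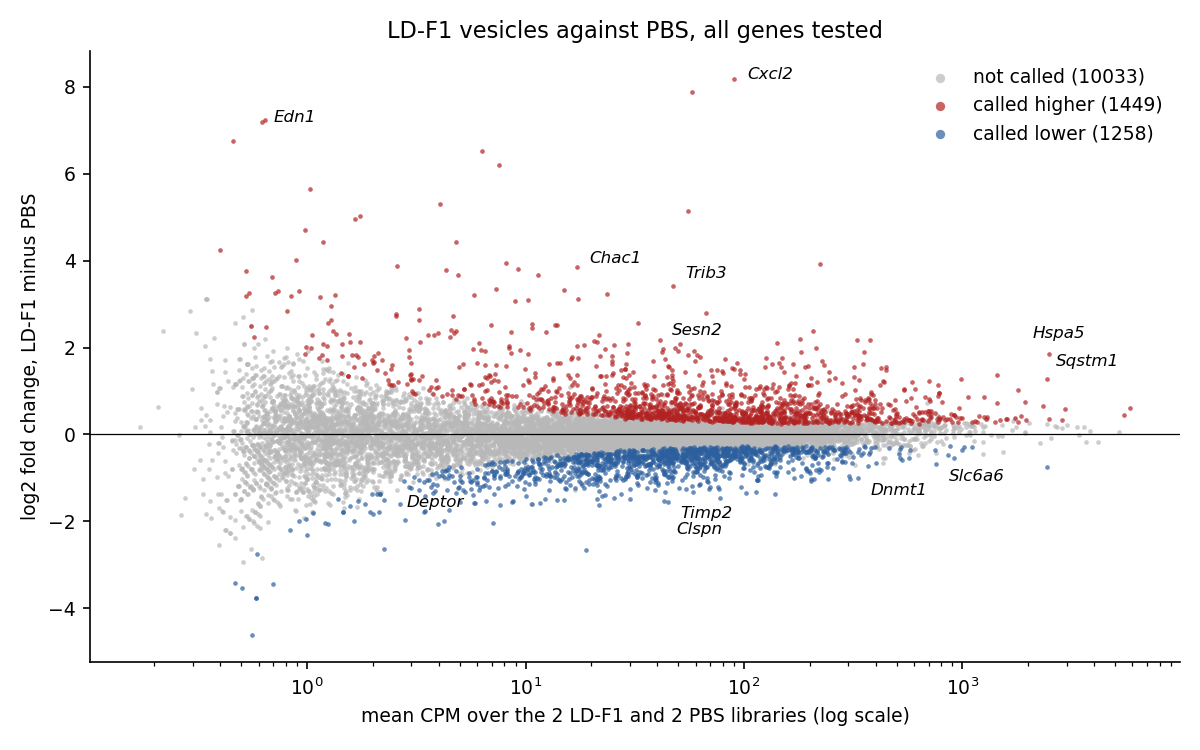
Log2 fold change of LD-F1 vesicles over PBS (vertical axis) against mean CPM over the 4 libraries (horizontal axis, log scale), 1 point per gene tested. Red points are the 1449 genes called higher, blue points the 1258 called lower and grey points the 10033 not called; the highest point is Cxcl2 at 8.19.

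The called genes split by length when genes were put into 4 classes of about equal number. Among the shortest (54 to 1971 bases) 313 were called higher and 94 lower, while among the longest (5636 bases or more) 289 were higher and 560 lower. The LD-F1 replicates also differed from each other along gene length: over 5933 genes, which are not independent replicates, Spearman's rank correlation of length with their log2 difference was 0.56, against 0.019 for the PBS replicates. When an offset for gene length was fitted in each library, the counts became 213 and 207 in the shortest class and 487 and 489 in the longest. With that offset 3050 genes were called in all. The offset removes any trend with gene length from each library, including one shared by both libraries of a group. Near-even counts therefore follow from it, and the origin of the split was not tested. For the lists described below whose median length lies in the longest class, the counts with that offset are given beside the others.

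**Figure D2:**
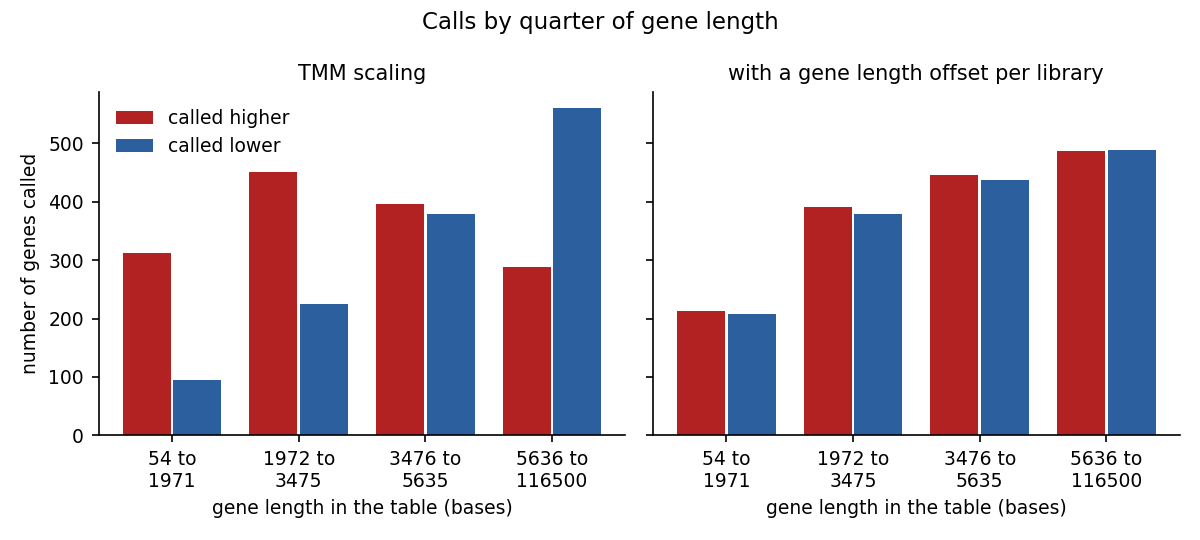
Number of genes called higher (red) and lower (blue) in each of 4 classes of gene length, with TMM scaling (left) and with a gene length offset per library (right). On the left the balance runs from 313 higher and 94 lower in the shortest class to 289 and 560 in the longest. On the right each class is nearly even, which follows from the offset, since it removes any length trend of each library.

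Gene lists written from general knowledge were read against these shares. The 68 lists hold 1990 distinct tested genes, of which 673 were called; abundant genes are called more often, with 20.78% higher and 11.05% lower in the highest of 4 classes of CPM. Each called gene named below from a list had both LD-F1 libraries on 1 side of both PBS libraries, because the rule for naming genes asked for it. The same held for 29.9% (higher) and 29.6% (lower) of all genes tested. Many list counts depended on the PBS libraries: of the 64 lists with at least 3 genes called, 49 and 45 lost more than 1 in 3 of their calls without PBS replicate 1 or 2, and 13 and 11 without LD-F1_b replicate 1 or 2, which enter the estimate of the spread. Without LD-F1 replicate 1 the reverse held: 26 of the 64 lists had over 1.5 times as many calls, and without LD-F1 replicate 2, 3 lists. With library totals alone the medians of 12 lists changed sign, and with the length offset those of 7, all of them within 0.09 of 0 under TMM scaling; the mitochondrial ribosomal proteins are among the former. Log2 fold changes are written with ± their standard error, and CPM values of the 2 replicates stand in the order of their numbers.

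Many transcripts for amino acid supply rose. Aminoacyl-tRNA synthetases load each tRNA with its amino acid, and of 20 cytosolic ones 16 rose and 0 fell, with a median log2 fold change of 0.50 against 0.01 over all genes. Cars, the cysteine enzyme, had 138 and 149 CPM with LD-F1 vesicles and 70.7 and 65.0 with PBS, a log2 fold change of 1.09 ± 0.09 (adjusted p = 6.52e-06). Nars, the asparagine enzyme, had 685 and 811 CPM against 419 and 422 (0.83 ± 0.09, adjusted p = 5.97e-05). Aars, the alanine enzyme, had 491 and 514 CPM against 284 and 298 (0.79 ± 0.08, adjusted p = 3.1e-05). All LD-F1 values of these 3 genes lay above the PBS values, as the rule for naming genes required. By contrast, 0 of the 17 mitochondrial synthetases were called in either direction (median 0.03), and the LD-F1 and PBS values of Tars2, among the most abundant per length, overlapped at 124 and 143 CPM against 126 and 111. The cytosolic count was 11 without either PBS replicate and 15 with the length offset. Without LD-F1 replicate 1, 1 mitochondrial synthetase, Tars2, was higher (adjusted p = 0.017) and 2 were lower.

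Enzymes that make serine, asparagine, proline and cysteine had 10 of 18 members higher and 1 lower (median 0.40). Cth, which releases cysteine from cystathionine, had 15.6 and 20.9 CPM with LD-F1 vesicles against 2.94 and 3.28 with PBS (2.55 ± 0.23, adjusted p = 8.74e-06), on chromosome 3 from 167345495 to 167379557 in the positions of the table. Asns, which makes asparagine, had 253 and 288 CPM against 123 and 124 (1.13 ± 0.09, adjusted p = 3.72e-06), and Bcat1, which transaminates branched-chain amino acids, 178 and 168 against 83.6 and 82.3 (1.06 ± 0.09). The member that fell was Shmt1, the cytosolic serine hydroxymethyltransferase, at -0.43 ± 0.10, a call lost without PBS replicate 1 (adjusted p = 0.143) or 2. The list had 6 higher without either PBS replicate.

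Among 19 amino acid transporters, 8 rose and 0 fell. Slc1a4, a carrier of alanine, serine and cysteine, rose by 1.88 ± 0.21, and the glycine carrier Slc6a9 by 1.36 ± 0.13. Slc7a11, the cystine carrier, had 610 and 445 CPM against 177 and 168 (1.61 ± 0.13), and its heavy-chain partner Slc3a2 had 479 and 518 against 265 and 257 (0.93 ± 0.08). The LD-F1 replicates of Slc7a11 lay well apart, but both were above PBS, as the rule for naming genes required. Glutathione and selenoprotein genes had 9 of 32 higher and 1 lower: Chac1, which degrades glutathione, stood at 33.1 and 31.2 CPM against 1.83 and 2.58 (3.86 ± 0.20), and the glutathione synthetase Gss at 75.1 and 79.0 against 39.1 and 35.1 (1.05 ± 0.10), while Msrb1, a methionine sulfoxide reductase, fell by 0.77 on the log2 scale. Without LD-F1 replicate 1 the transporters had 9 higher and 5 lower.

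The one-carbon and folate list split, with 3 of 18 higher and 4 lower (median -0.08). Mthfd2, the mitochondrial enzyme of this cycle, had 198 and 242 CPM against 71.3 and 77.9 (1.56 ± 0.11, adjusted p = 1.22e-06). Tyms, which makes thymidylate, fell by 0.63 ± 0.15, a call that was lost without PBS replicate 1 (adjusted p = 0.13). Purine and pyrimidine synthesis had 4 of 23 higher and 4 lower, among them Impdh1 (0.60 ± 0.09) and Umps (-0.60 ± 0.09). Upp1, a uridine phosphorylase below the abundance that the naming rule asks for and chosen after its values were seen, had 3.90 and 4.98 CPM against 0.848 and 0.441 (2.77 ± 0.44). The folate list without PBS replicate 1 had 2 higher and 1 lower, and without PBS replicate 2, 1 and 2; the purine and pyrimidine list had 7 higher and 6 lower without LD-F1 replicate 1.

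Many of these genes are known targets of the transcription factor ATF4, which binds a composite of ATF and C/EBP half-sites. The letters TGATGNAAN were searched on both strands in the RefSeq promoter table (build GRCm38.p6, 250 bases before to 50 after each gene start), where 8466 of 10433 named protein-coding genes tested had a promoter. They were present in 3.67% of promoters of genes called higher, 2.03% of those called lower and 2.26% of all tested, against 4.04% of the 27025 promoters of the table. At a log2 fold change of at least 1 the share was 6.55% (15 of 229) among genes called higher and 3.43% (5 of 146) among those called lower. In the 250 bases before the start alone the shares were 3.01% for genes called higher, 1.72% for those called lower and 2.02% for all tested. The stretches of 4 amino acid genes that rose are shown so that the match can be read in its surroundings; capitals mark each match or its reverse complement, of which Slc7a11 has 2. A match is a description and not a binding site. They lie at chr2:119351023-119351081 (Chac1, plus strand), chr3:50443628-50443686 (Slc7a11, minus strand), chr6:7693210-7693257 (Asns, minus strand) and chr8:111033704-111033762 (Aars, plus strand).
Chac1: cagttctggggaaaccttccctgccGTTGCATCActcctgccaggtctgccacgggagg
Slc7a11: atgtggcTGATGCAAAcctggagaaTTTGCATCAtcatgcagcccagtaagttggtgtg
Asns: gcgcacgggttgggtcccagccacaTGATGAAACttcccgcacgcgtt
Aars: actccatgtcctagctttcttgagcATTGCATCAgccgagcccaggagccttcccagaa

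The secretory pathway begins with the entry of proteins into the endoplasmic reticulum (ER). Of 24 genes of the translocon, signal recognition particle and signal peptidase, which bring new proteins into the ER, 20 rose and 0 fell (median 0.43). Sec61a1, the channel subunit, had 491 and 413 CPM against 299 and 291 (0.61 ± 0.10, adjusted p = 0.000667). Spcs2 of the signal peptidase had 190 and 250 CPM against 134 and 131 (0.73 ± 0.12), and Srprb of the signal recognition receptor 88.3 and 100.1 against 61.0 and 53.0 (0.72 ± 0.11). For each of them both LD-F1 values lay above both PBS values, as the rule for naming genes required. The distance between the groups was larger than the gap between the PBS replicates. The number higher was 7 and 8 without PBS replicate 1 or 2, without either LD-F1_b replicate 13, and with library totals alone 12.

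N-glycosylation genes, whose products add and trim sugar chains in the ER, had 15 of 31 higher and 0 lower (median 0.31). Prkcsh, a glucosidase subunit, had 208 and 228 CPM against 117 and 118 (0.89 ± 0.10, adjusted p = 4.31e-05), and Gfpt1, which feeds sugar into that pathway, rose by 0.71 ± 0.09. The coats that carry cargo between ER and Golgi, COPII and COPI, had 16 of 32 higher and 0 lower (median 0.30). Sec24d, a cargo adaptor of COPII, had 254 and 220 CPM against 104 and 105 (1.18 ± 0.09, adjusted p = 3.2e-06), the cargo receptor Surf4 469 and 486 against 277 and 262 (0.82 ± 0.08), and the retrieval receptor Kdelr2 rose by 0.66 ± 0.10. With PBS replicate 1 or 2 left out, 9 and 8 glycosylation genes and 8 and 7 coat genes were higher.

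A group of these genes can be picked by sequence alone. The ER stress element, CCAAT and CCACG with any 9 bases between them, on either strand, is known to be bound by NF-Y together with ATF6. It was present in the promoter window of 16 of the 8466 tested genes (0.189%) and of 35 of the 27025 promoters of the table (0.130%). Of those 16 genes 10 were called higher and 0 lower, beside 11.4% higher over all genes tested. The 6 others were Hnrnpa3, Pan2, Tdrd9, Derl3, Adcy3 and Acacb, with log2 fold changes of 0.13, 0.03, 0.57, -0.18, -0.57 and -1.04; the last 4 had at most 5.31 CPM in either group. For each of the 10 genes 1 match is shown, because it is what they share by rule. Capitals mark the fixed letters, read along each gene's own strand in RefSeq build GRCm38.p6. Hsp90b1 had 2 matches upstream, of which 1 is shown. Creld2 and Alg12, which lie head to head, share 1 element at chr15:88819520-88819538, read from opposite sides. The others lie at chr2:34772025-34772043 (Hspa5, plus strand), chr10:86705533-86705551 (Hsp90b1, minus), chr12:17266491-17266509 (Pdia6, plus), chr19:6046532-6046550 (Syvn1, plus), chr14:118937827-118937845 (Dnajc3, plus), chr8:84847075-84847093 (Calr, minus), chr13:12565682-12565700 (Ero1lb, plus) and chr11:50325800-50325818 (Canx, minus).
Hspa5: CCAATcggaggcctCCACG
Creld2: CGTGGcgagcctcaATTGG
Hsp90b1: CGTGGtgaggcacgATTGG
Pdia6: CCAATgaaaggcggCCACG
Syvn1: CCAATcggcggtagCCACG
Dnajc3: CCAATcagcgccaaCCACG
Calr: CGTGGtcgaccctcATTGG
Alg12: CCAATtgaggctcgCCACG
Ero1lb: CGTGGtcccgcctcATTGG
Canx: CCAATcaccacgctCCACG

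The values of these 10 genes were as follows. Hspa5, the main chaperone of the ER, had 3514 and 4279 CPM with LD-F1 vesicles and 1091 and 1079 with PBS (1.84 ± 0.10, adjusted p = 2.78e-07). Creld2, an ER-stress-inducible protein, had 176 and 214 CPM against 59.6 and 55.6 (1.76 ± 0.11, adjusted p = 5.69e-07). Hsp90b1, a further ER chaperone, had 1278 and 1522 CPM against 562 and 592 (1.28 ± 0.10). LD-F1 replicate 2 was the higher of the LD-F1 libraries for all 3. The groups did not overlap, which the rule for naming genes required of Hspa5 and Hsp90b1. The protein disulfide isomerase Pdia6 rose by 1.22 ± 0.09, the ubiquitin ligase of ER-associated degradation Syvn1 by 1.16 ± 0.09 and the co-chaperone Dnajc3 by 1.14 ± 0.10. Smaller rises were those of the lectin chaperones Calr (0.86 ± 0.08) and Canx (0.49 ± 0.08), of the mannosyltransferase Alg12 (0.82 ± 0.15) and of the oxidase Ero1lb (0.63 ± 0.14). Hspa5, Pdia6, Hsp90b1 and Calr are textbook targets of the unfolded protein response, so this count is not independent of what the letters were chosen for.

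**Figure D3:**
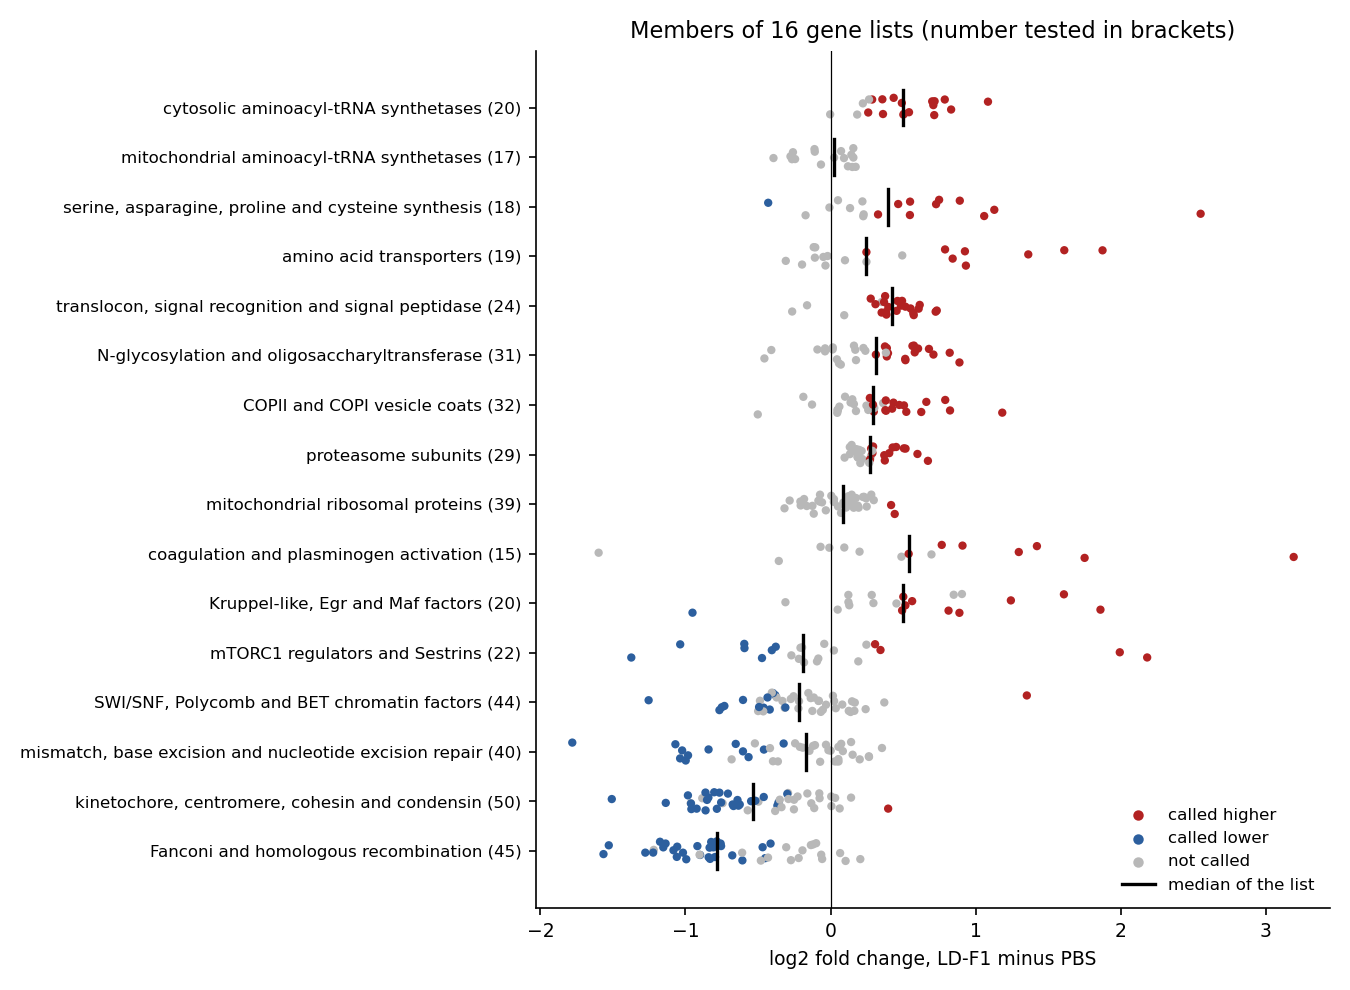
Log2 fold change of each tested member of 16 gene lists, 1 point per gene, with the median of each list as a black bar; red points were called higher, blue lower and grey not called. Cytosolic synthetases and translocon genes lie almost wholly to the right of 0, mitochondrial synthetases and mitochondrial ribosomal proteins around 0, and Fanconi and recombination genes mostly to the left, with a median of -0.78.

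Proteasome subunits had 13 of 29 higher and 0 lower (median 0.27), with Psmd8 at 374 and 401 CPM against 249 and 237 (0.67 ± 0.08) and Psmb6 at 238 and 285 against 175 and 170 (0.60 ± 0.10). That count was 4 without either PBS replicate, 8 without either LD-F1_b replicate, 27 without LD-F1 replicate 1 and 6 with library totals alone. Of 30 translation initiation factors 10 rose and 1 fell (median 0.24): Eif4ebp1, a repressor of cap-dependent translation, rose by 0.83 ± 0.10 and the ribosome anti-association factor Eif6 by 0.63 ± 0.10, whereas the paralogue Eif4ebp2 was at -0.44 ± 0.11, a call lost without PBS replicate 1 (adjusted p = 0.182). Factors called higher numbered 2 and 4 without PBS replicate 1 or 2, and without LD-F1 replicate 1, 18. The 39 mitochondrial ribosomal proteins had 2 higher and 0 lower (median 0.09), and both calls were lost without either PBS replicate. Without LD-F1 replicate 1, 10 were higher, and with the length offset 2 were higher and 5 lower.

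Growth control genes moved in both directions. Of 22 regulators of the growth kinase complex mTORC1, 4 rose and 7 fell (median -0.19). Sesn2, a leucine sensor that restrains mTORC1, had 72.5 and 62.6 CPM with LD-F1 vesicles and 14.4 and 15.3 with PBS (2.18 ± 0.12, adjusted p = 2.83e-07). Ddit4, a stress-induced inhibitor of the same complex, had 12.9 and 13.9 CPM against 2.87 and 3.84 (1.99 ± 0.22, adjusted p = 4.21e-05). The paralogue Sesn1 went the other way, with 7.04 and 8.04 CPM against 15.9 and 15.1 (-1.04 ± 0.18), as did Deptor, an inhibitory subunit, with 3.75 and 4.20 against 9.72 and 10.9 (-1.37 ± 0.21). The 4 genes thus hold both inhibitors that rose and inhibitors that fell. Without either PBS replicate 2 rose and 4 fell, and without either LD-F1_b replicate 2 rose and 6 fell. Growth-arrest genes of the Gadd45, Btg and cyclin-dependent kinase inhibitor list had 5 of 24 higher and 8 lower, with Ddit3 (2.09 ± 0.15), Gadd45a (1.95 ± 0.27) and Gadd45b (1.80 ± 0.17) among the former; 4 and 5 were lower without PBS replicate 1 or 2.

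**Figure D4:**
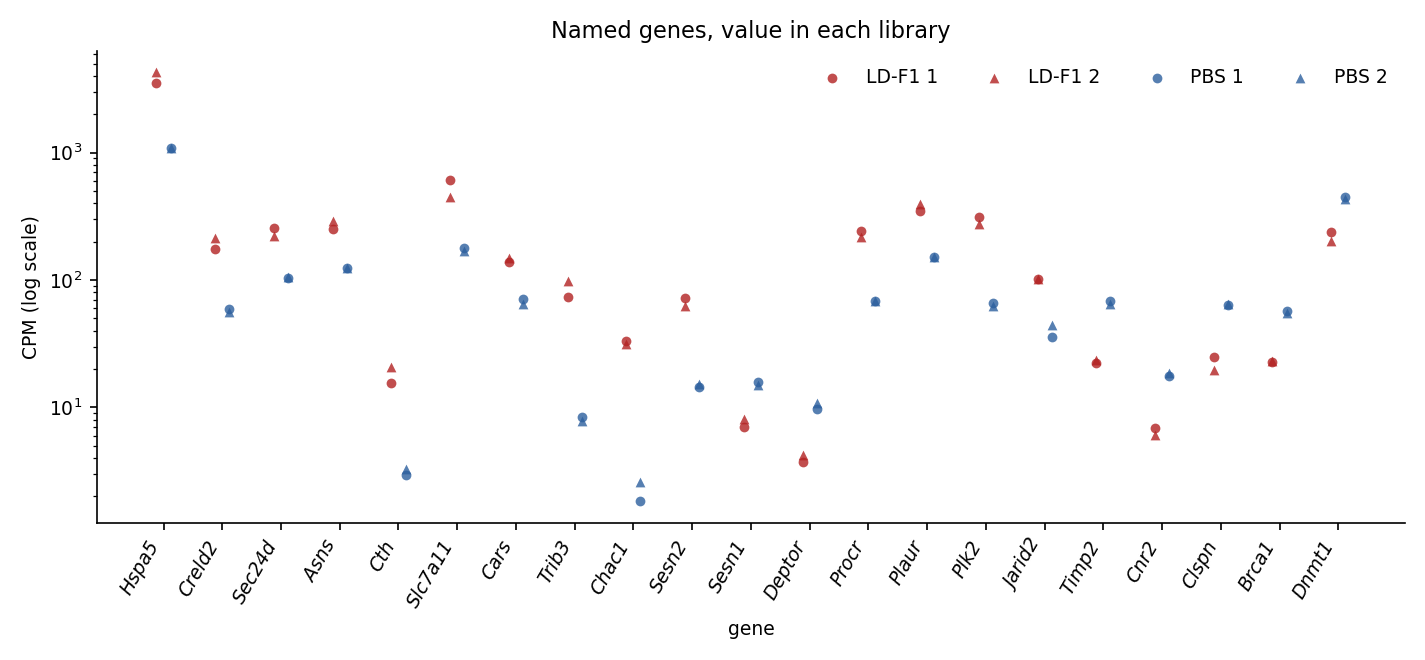
CPM (log scale) of 21 named genes in each LD-F1 library (red) and PBS library (blue); circles are replicate 1 and triangles replicate 2. The red and blue values of every gene shown lie apart, from Chac1 at 33.1 and 31.2 against 1.83 and 2.58 to Dnmt1 at 238 and 203 against 448 and 436. The rule for naming genes required this of all of them except Creld2.

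Many genes of genome maintenance fell. Of 45 genes of the Fanconi pathway and homologous recombination, which repair cross-links and double-strand breaks, 28 fell and 0 rose, with a median of -0.78. Clspn, an adaptor of the replication checkpoint, had 24.7 and 19.6 CPM with LD-F1 vesicles and 63.1 and 64.8 with PBS (-1.53 ± 0.13, adjusted p = 4.9e-06), on chromosome 4 from 133134935 to 133175567 in the positions of the table. Brca1 had 22.9 and 23.1 CPM against 56.9 and 54.6 (-1.28 ± 0.14), and the exonuclease gene Exo1 30.7 and 29.5 against 67.7 and 72.9 (-1.22 ± 0.10). Values with LD-F1 vesicles stayed under those with PBS for all 3, as the rule for naming genes required. With the length offset 27 fell, and without either PBS replicate 19. That makes it the list with the lowest median of all 68.

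Mismatch and excision repair had 12 of 40 lower and 0 higher (median -0.17), which included the uracil glycosylase Ung (30.0 and 30.7 CPM against 67.0 and 60.3, -1.07 ± 0.12), the mismatch protein Msh6 (-1.02 ± 0.12) and the ligase Lig1 (-1.0 ± 0.10), all 3 of which also act at replication forks. The nucleotide excision genes Ercc2 and Ercc3, picked outside the naming rule, were at -0.03 and 0.08 and did not pass. Excision genes were not counted apart from the rest of the list. Kinetochore, centromere, cohesin and condensin genes had 26 of 50 lower and 1 higher (median -0.53). Esco2, which acetylates cohesin, had 7.19 and 7.32 CPM against 22.7 and 18.6 (-1.51 ± 0.19), and the condensin gene Ncapg2 had 42.0 and 36.6 against 89.3 and 83.5 (-1.14 ± 0.12). The exception was the kinetochore gene Zwint, at 121 and 138 CPM against 96.2 and 100.5 (0.40 ± 0.09), a call lost without PBS replicate 1 or 2 (highest adjusted p = 0.152). The lower counts without PBS replicate 1 or 2 were 5 and 6 for repair and 16 and 18 for the kinetochore list.

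Nuclear structure genes that passed the test were mostly lower. Of 19 lamin and nuclear envelope genes 6 fell and 2 rose, with Tmpo at -0.71 ± 0.08 and Lmnb1 at -0.60 ± 0.09, and of 34 nuclear pore and karyopherin genes 10 fell and 1 rose, with Nup210 at -0.65 ± 0.13 and Nup155 at -0.54 ± 0.09. Leaving out PBS replicate 1 or 2 gave 2 and 3 lower envelope genes and 3 and 2 lower pore genes. The pore list without LD-F1 replicate 1 had 4 higher and 19 lower, and without LD-F1 replicate 2, 5 and 13; without either LD-F1_b replicate 5 envelope genes were lower and 0 higher. Of 49 histone genes 32 were matched by name to an entry of the count table. Of these, 16 had enough counts to be tested in these poly(A)-selected libraries, and 1 was higher and 1 lower.

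Chromatin regulators that passed the test were mostly lower. Of 44 genes of SWI/SNF, Polycomb and BET complexes 12 fell and 1 rose (median -0.22). That one was Jarid2, a Polycomb cofactor, at 102 and 103 CPM against 35.7 and 44.4 (1.35 ± 0.12, adjusted p = 8.85e-06). Ezh2, the methyltransferase of the same complex, had 27.4 and 32.4 CPM against 47.4 and 53.0 (-0.75 ± 0.12), and Cbx2, a reader of its mark, 7.04 and 4.55 against 13.4 and 14.2 (-1.25 ± 0.22). Histone demethylases and methyltransferases had 4 of 47 higher and 10 lower, with the demethylases Kdm6b (1.08 ± 0.16) and Kdm5b (0.75 ± 0.12) higher and Suv39h1 lower (-0.66 ± 0.11). These are long genes, and the length offset gave 2 higher and 14 lower for the complexes and 9 and 11 for the histone enzymes. Without either PBS replicate 4 of the complexes' genes were lower, and 3 and 4 of the histone enzymes. Leaving out LD-F1 replicate 1 gave 20 lower genes of the complexes and 24 lower histone enzymes.

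The lists of PIM, SIK, SGK and PLK kinases and of dual-specificity phosphatases had more members higher than lower. Of 16 PIM, SIK, SGK and PLK kinases 8 rose and 1 fell (median 0.44). Plk2 had 314 and 276 CPM against 66.2 and 62.9 (2.19 ± 0.10, adjusted p = 7.08e-08), and the survival kinases Pim2 and Pim1 rose by 1.5 ± 0.20 and 1.23 ± 0.12. Of 17 dual-specificity phosphatases, which switch off MAP kinases, 6 rose and 0 fell, among them Dusp5 at 199.8 and 206 CPM against 66.0 and 66.2 (1.62 ± 0.09) and Dusp1 at 90.0 and 89.3 against 32.6 and 37.0 (1.36 ± 0.10). The phosphatase count was 3 without PBS replicate 2.

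Brakes of Ras had 4 of 13 higher and 6 lower: Errfi1, an inhibitor of the EGF receptor, had 9.22 and 9.10 CPM against 2.41 and 2.27 (1.96 ± 0.24), while Dab2ip, a Ras GTPase-activating protein, had 15.7 and 13.7 against 30.3 and 28.3 (-0.99 ± 0.14). Of 7 RGS proteins, which shorten G-protein signals, 3 rose and 1 fell. Rgs16 had 25.3 and 29.8 CPM against 6.52 and 6.99 (2.03 ± 0.16) and Rgs1 132 and 150 against 54.1 and 61.9 (1.28 ± 0.10), whereas Rgs18 was at -0.74 ± 0.19, a call lost without PBS replicate 1 (adjusted p = 0.115). Without either PBS replicate the Ras brakes had 2 higher and 3 lower, and the RGS list had 2 higher without PBS replicate 1.

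Cytoskeletal lists moved in both directions. Actin nucleation had 9 of 38 higher and 4 lower, with the formin Daam1 at 89.6 and 67.8 CPM against 27.7 and 30.5 (1.43 ± 0.14) and the actin-binding Hcls1 at 0.90 ± 0.09. Its lower members included the formin Fhod1 (-0.67 ± 0.11). Myosins and kinesins had 7 of 34 higher and 8 lower, from Myo1d (0.70 ± 0.11) to Kif24 (-1.20 ± 0.26). The actin list had 3 higher without either PBS replicate, and the motors had 2 and 4 higher and 4 and 3 lower; without LD-F1 replicate 1, 17 motors were lower and 15 actin genes higher. With the length offset the motors had 7 higher and 9 lower.

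Genes of coagulation and plasminogen activation had 7 of 15 higher and 0 lower (median 0.54). Procr, the endothelial protein C receptor, had 244 and 216 CPM with LD-F1 vesicles and 68.3 and 68.2 with PBS (1.75 ± 0.09, adjusted p = 2.17e-07), and Plaur, the urokinase receptor, 349 and 395 against 151 and 152 (1.3 ± 0.09, adjusted p = 1.69e-06). Neither receptor's replicates overlapped with PBS, as the rule for naming genes required. The count was 5 without PBS replicate 1 and 7 without PBS replicate 2 or either LD-F1_b library.

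Secreted growth factors and their receptors had 5 of 17 higher and 2 lower. Osm, a cytokine of the interleukin 6 family, had 34.0 and 29.9 CPM against 14.6 and 10.5 (1.35 ± 0.17), Hbegf 10.3 and 9.03 against 3.65 and 4.72 (1.20 ± 0.22) and Pdgfb 135 and 125 against 66.7 and 74.0 (0.89 ± 0.11). Igf1r was lower (-0.61 ± 0.16), a call lost without LD-F1 replicate 2 or either PBS replicate (highest adjusted p = 0.17). In the TGF-beta, activin and BMP list 5 of 27 rose and 4 fell: Gdf15, a stress-induced hormone, had 28.7 and 38.8 CPM against 8.74 and 6.49 (2.15 ± 0.22), the inhibitory Smad7 rose by 1.23 ± 0.24, and the receptor Tgfbr2 fell by 0.73 ± 0.11. The list had 3 higher and 1 lower without PBS replicate 1, and without PBS replicate 2, 4 and 2. Growth factors and receptors had 4 higher and 0 lower without either PBS replicate, and with the length offset 5 higher and 2 lower.

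A pair of paralogues moved apart in the Notch list and another in the purinergic and adenosine list. The counts of the Notch, Wnt and purinergic and adenosine lists lay near the shares over all genes tested, 11.4% higher and 9.87% lower. In the Notch list (2 of 19 higher, 2 lower) the ligand Jag1 had 63.6 and 53.7 CPM against 30.9 and 30.4 (0.94 ± 0.12), and Jag2 90.5 and 82.8 against 130 and 137 (-0.63 ± 0.10). In the purinergic and adenosine list (2 of 14 higher, 2 lower) the phosphodiesterase Pde4b rose by 1.29 ± 0.13 and Pde4a fell by 0.71 ± 0.15, while the adenosine receptor Adora2b had 41.1 and 38.3 CPM against 15.2 and 16.7 (1.31 ± 0.13). The Wnt list had 2 of 24 higher and 3 lower, with the receptor Fzd5 at 0.78 ± 0.13 and the co-receptor Lrp5 at -0.75 ± 0.10. Guidance cues had 1 of 18 higher and 4 lower, Plxnd1 (-0.95 ± 0.12) and Plxnc1 (-0.93 ± 0.13) among the latter. Without either PBS replicate the Notch list had 1 gene called in each direction, and without LD-F1 replicate 2, 5 in each. Without LD-F1 replicate 1, 5 purinergic, 9 Wnt and 7 guidance genes were lower, and without PBS replicate 1 or 2, 1 and 2 Wnt genes. The length offset gave 2 higher and 3 lower for the Wnt list and 1 and 4 for guidance cues.

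Phosphoinositide kinases and phosphatases had 3 of 38 higher and 12 lower. Itpr3, a calcium release channel of the ER, had 184 and 133 CPM against 330 and 319 (-1.03 ± 0.12), and the kinase Pik3cd fell by 0.70 ± 0.12, while Pip5k1b rose by 0.71 ± 0.11. Ion channels had 7 of 32 higher and 6 lower, with the endolysosomal channel Mcoln2 at 206 and 163 CPM against 97.3 and 91.5 (0.97 ± 0.11) and the anion channel subunit Lrrc8d (0.81 ± 0.09) higher and the endolysosomal Tpcn1 lower (-0.86 ± 0.13). With the length offset the first list had 5 higher and 13 lower. Leaving out PBS replicate 1 or 2 gave 5 and 6 lower phosphoinositide genes, and 4 channels were higher in each case, with 3 and 5 lower.

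Surface receptors of macrophages also split. Siglec, CD300, paired-Ig and LILR receptors had 5 of 24 higher and 5 lower. The inhibitory Siglece had 13.6 and 18.6 CPM against 5.87 and 6.24 (1.41 ± 0.20) and Pilra 67.6 and 67.0 against 27.9 and 24.0 (1.37 ± 0.11), while Cd33 had 21.5 and 18.9 against 47.3 and 43.3 (-1.16 ± 0.13) and Clec4a2 10.3 and 14.6 against 29.4 and 32.5 (-1.31 ± 0.17). Of the 21 genes of the Ms4a and Schlafen families 8 could be tested, 4 higher and 2 lower. Slfn2 had 225 and 270 CPM against 101 and 92.8 (1.35 ± 0.10) and its neighbour in the family Slfn9 10.5 and 5.05 against 21.4 and 23.0 (-1.52 ± 0.26); Schlafen genes are close copies, so reads may be shared among them. Integrins and tetraspanins had 6 of 26 higher and 2 lower, with Itgb5 at -1.05 ± 0.12 and the tetraspanin Cd82 at 0.90 ± 0.10. Without PBS replicate 1 or 2, 3 and 4 of the Siglec-type receptors, 3 and 1 of the Ms4a and Schlafen genes and 3 integrins or tetraspanins in each case were higher.

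Transporters of sugars, nucleosides, monocarboxylates and phosphate had 9 of 37 higher and 7 lower. The glucose carrier Slc2a1 had 819.9 and 817 CPM against 396 and 392 (1.05 ± 0.08), and the sugar-phosphate exchanger Slc37a2 114 and 113 against 223 and 228 (-1.0 ± 0.08). Pentose phosphate and glycogen genes counted 6 of 22 higher and 4 lower, and among the former was the glycogen branching enzyme Gbe1, at 116 and 113 CPM against 70.1 and 69.9 (0.71 ± 0.09). Lipid droplet genes had 7 of 26 higher and 2 lower, led by Hilpda, which blocks triglyceride breakdown, at 79.2 and 102 CPM against 39.1 and 39.5 (1.21 ± 0.12). Peroxisomal and mitochondrial beta-oxidation had 0 of 39 higher and 7 lower, among them Acox3 (-0.83 ± 0.16), and 7 higher and 6 lower without LD-F1 replicate 1. Without PBS replicate 1 or 2, 3 and 2 of the pentose and glycogen genes were higher, 4 and 2 oxidation genes lower, and 4 and 8 sugar transporters higher, with 2 and 6 lower.

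Metal and ion transporters had 10 of 44 higher and 5 lower. The zinc importer Slc39a4 had 44.0 and 38.3 CPM against 17 and 16.3 (1.3 ± 0.13), the zinc exporter Slc30a1 23.8 and 23.8 against 11.5 and 9.95 (1.14 ± 0.16) and the bicarbonate carrier Slc4a7 281 and 256 against 119 and 126 (1.13 ± 0.10). The anion exchanger Slc4a2 fell by 0.76 ± 0.09. ABC transporters and flippases had 4 of 36 higher and 7 lower, with Abca9 at -1.05 ± 0.13 and Abca2 at -0.97 ± 0.16. Without PBS replicate 1 or 2, 6 and 7 metal and ion transporters were higher and 2 lower in each case, and 0 ABC transporters were higher. The metal and ion transporters had 12 higher and 13 lower without LD-F1 replicate 1. ABC transporters had 5 higher and 7 lower with the length offset.

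Transcription factors of the Kruppel-like, Egr and Maf families had 9 of 20 higher and 1 lower (median 0.50). Egr2 had 16.9 and 15.4 CPM against 4.96 and 3.91 (1.86 ± 0.20), Maff 38.6 and 36.3 against 12.1 and 12.4 (1.61 ± 0.12) and Klf4 22.6 and 14.9 against 8.16 and 7.62 (1.24 ± 0.20). This list had 7 and 8 higher without PBS replicate 1 or 2.

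ETS, RUNX, C/EBP and Max-network factors had 8 of 39 higher and 7 lower, with Lmo4 (1.21 ± 0.09) and Cebpb (1.14 ± 0.16) among the former and Fli1 (-0.87 ± 0.11) among the latter. Nuclear receptors and coregulators had 1 of 28 higher, Ppard at 44.9 and 33.4 CPM against 23.0 and 21.5 (0.81 ± 0.15), and 6 lower. The circadian clock had 4 of 18 higher and 2 lower, with the repressor Nfil3 at 21.4 and 25.4 CPM against 10.8 and 9.39 (1.21 ± 0.16). In the mRNA decay list 4 of 48 rose and 1 fell: the RNases Zc3h12a (2.00 ± 0.11) and Zc3h12c (1.45 ± 0.14) and the deadenylation cofactor Btg2 (1.94 ± 0.21) were among those that rose, and the median over the list was -0.12. Mediator and elongation genes had 3 of 46 higher and 3 lower, with Ell2 at 181 and 144 CPM against 72.6 and 77.7 (1.11 ± 0.12). Without PBS replicate 1 or 2, 3 and 2 nuclear receptors and coregulators and 3 of the ETS-type factors in each case were lower, and 2 and 1 clock genes were higher. Lower were 14 mRNA decay genes, 15 Mediator and elongation genes and 10 nuclear receptors and coregulators without LD-F1 replicate 1.

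A further 13 lists had between 2 and 16 genes called. Rab GTPases and TBC proteins had 8 of 47 higher and 8 lower, with Rab27a, which serves vesicle secretion, at 5.17 and 3.77 CPM against 10.2 and 10.8 (-1.23 ± 0.22). ESCRT, sorting nexin and retromer genes had 6 of 40 higher and 7 lower, junction proteins 2 of 16 and 4, matrix and proteoglycan genes 4 of 29 and 4, sphingolipid genes 6 of 42 and 5, phospholipid genes 7 of 33 and 4, and mitochondrial carriers 4 of 34 and 4. Ubiquitin ligases had 6 of 38 higher and 3 lower, with Rnf19b at 344 and 346 CPM against 145 and 143 (1.26 ± 0.08), deubiquitinases 4 of 51 and 2, and Kelch and cullin adaptors 2 of 44 and 3. Mitochondrial dynamics and import had 4 of 40 higher and 1 lower, splicing factors 1 of 41 and 4, and small nucleolar RNA host genes 2 of 14 and 0. Medians of these lists lay between -0.15 and 0.31. Each of these lists had 0 to 6 genes called without PBS replicate 1 or 2, and without LD-F1 replicate 1, 7 to 22, among them 17 higher in mitochondrial import. With the length offset the ubiquitin ligases had 10 higher and 2 lower, the deubiquitinases 4 and 3 and the splicing factors 2 and 4.

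By gain in CPM, which is not corrected for gene length, Hspa5 came first with 2811 CPM on average. Actb, cytoplasmic actin, had 6732 and 7402 CPM against 4500.5 and 4815 (0.60 ± 0.09, adjusted p = 0.000395). Sqstm1, the autophagy receptor p62, had 3461 and 3481 CPM against 1449 and 1401 (1.28 ± 0.08), and Hmox1, which degrades haem, 2101 and 2051 against 835 and 767 (1.37 ± 0.08). Others among the 10 largest gains were the peroxidase Prdx1 (1.02 ± 0.09), the secreted Spp1 (0.59 ± 0.09), the survival factor Mcl1 (0.65 ± 0.10), the lipase Lpl (0.75 ± 0.10), Hsp90b1 and the ferritin gene Fth1 (0.46 ± 0.10). The call on Fth1 was lost without PBS replicate 1 (adjusted p = 0.075) or 2 (adjusted p = 0.0872).

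The largest losses were smaller. Slc6a6, the taurine carrier, had 660 and 503 CPM against 971 and 903 (-0.69 ± 0.12, adjusted p = 0.00112). Dnmt1, the maintenance DNA methyltransferase, had 238 and 203 CPM against 448 and 436 (-1.0 ± 0.09), and the organic anion carrier Slco4a1 213 and 189 against 407 and 409 (-1.02 ± 0.09). Laptm5, a lysosomal membrane protein of blood cells (-0.47 ± 0.09), Fnip2, a folliculin partner (-0.59 ± 0.10), and the aminopeptidase gene Anpep (-0.54 ± 0.10) fell as well. The other 4 of the 10 losses, Fasn, Tubb5, Lamp1 and Grn, lost their calls without PBS replicate 1 (adjusted p = 0.0934, 0.106, 0.174 and 0.277) or 2, and Fasn, Lamp1 and Grn also without either LD-F1_b replicate.

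The next 20 genes below the 10 highest by log2 fold change, among those that met the naming rule, are given here. Trib3, a pseudokinase induced by ATF4, had 73.9 and 98.3 CPM against 8.42 and 7.75 (3.41 ± 0.15, adjusted p = 7.34e-08), and the growth regulator Myc 43.6 and 41.4 against 4.05 and 4.91 (3.24 ± 0.15). Soat2, which esterifies cholesterol, had 23.2 and 24.3 CPM against 4.57 and 3.72 (2.52 ± 0.17), and the protease inhibitor Slpi 35.1 and 37.2 against 7.37 and 7.5 (2.28 ± 0.14). Cth, Plk2 and Sesn2, described above, stood among them. The rest were interferon-response genes (Gbp2, Gbp7, Oasl2, Ifi205, Isg15, Xaf1 and Rtp4, between 2.36 and 3.34), chemokine and cytokine genes (Cxcl10, Ccl5, Ccl7 and Tnf, between 2.37 and 3.22) and the costimulation genes Cd40 (3.33 ± 0.19) and Traf1 (2.80 ± 0.10). Gbp7 differed between the LD-F1 replicates, at 16.3 and 7.40 CPM.

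At the lower end, the corresponding 20 genes spanned -1.54 to -1.31. Timp2, an inhibitor of matrix metalloproteinases, had 22.3 and 23.5 CPM against 68.6 and 64.9 (-1.54 ± 0.11, adjusted p = 1.6e-06). Cnr2, the peripheral cannabinoid receptor, had 6.89 and 6.12 CPM against 17.6 and 18.7 (-1.48 ± 0.17), and Tlr8, an endosomal RNA sensor, 6.22 and 4.76 against 12.7 and 16.4 (-1.41 ± 0.22). Genes of the replication fork and its checkpoints were Atad5 (-1.48 ± 0.15), which unloads the sliding clamp, Wdhd1 (-1.32 ± 0.11) and Esco2. The others included Wdr76 (-1.48 ± 0.14), the ferrireductase Steap3 (56.6 and 57.9 CPM against 153 and 139, -1.35 ± 0.10), the heparan sulfatase Sulf2 (-1.33 ± 0.13), the Ras-association gene Rassf2 (-1.45 ± 0.13), the ciliary gene Alms1 (-1.54 ± 0.20), Zfp385a (-1.46 ± 0.15), Pald1 (-1.43 ± 0.14), Neurl1b (-1.38 ± 0.26), Ttyh3 (-1.38 ± 0.17) and Fam102a (-1.31 ± 0.10). Lrr1 (-1.33 ± 0.29) lost its call without PBS replicate 2 (adjusted p = 0.0616).

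A few genes were silent at this depth without vesicles. Edn1, the vasoconstrictor peptide endothelin 1, had 15 and 19 counts with LD-F1 vesicles and 0 and 0 with PBS, or 12-fold or more above PBS when 3 counts are allowed over the PBS group. It lies on chromosome 13 from 42119220 to 42125921 in the positions of the table. Il6 had 18 and 17 counts against 0 and 0 (at least 12.4-fold by the same floor), and Aig1, a hydrolase of fatty acid esters, 14 and 11 against 0 and 0 (at least 8.82-fold). The call on Aig1 was lost without either PBS replicate (highest adjusted p = 0.0654). In the other direction only Osbpl6, an oxysterol-binding-protein relative, had 0 counts in both LD-F1 libraries and 11 and 10 in PBS, and it did not enter the test. Of entries that are not protein coding, Mir155hg, the host transcript of miR-155, had 2.25 and 2.63 CPM against 0.196 and 0.315 (3.21 ± 0.57, adjusted p = 0.00165). The other 4 named by the rule were Mx2, annotated as a polymorphic pseudogene (2.84 ± 0.84), Gm1647 (4.25 ± 1.20), Gm38335 (-3.53 ± 0.93) and Gm42829 (-3.42 ± 0.99), and each of these lost its call without 3 or more of the 6 libraries in turn.

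Further motifs were counted in the same promoter windows. Among genes called higher, called lower and all tested, the NF-kB letters (GGG, any 2 bases, TTTCC) were present in 2.83%, 0.913% and 1.54% of promoters, the ISRE letters (TTTC, any 2 bases, TTTC) in 6.31%, 2.33% and 3.0%, and the AP-1 letters TGANTCA in 8.19%, 3.75% and 4.87%. The E2F letters TTTNNCGC were present in 7.44%, 12.9% and 9.24%, and the cell cycle letters TTTGAA (CHR) in 10.7%, 15.1% and 11.8%. In the same order the shares were 3.67%, 2.84% and 3.61% for TGACGTCA (CRE), 17.5%, 14.3% and 15% for TGACNNNGC (NRF2), 11.7%, 11.8% and 10.6% for CACGTG (E-box) and 41.8%, 41.5% and 39.1% for CCAAT (NF-Y), which overlaps the ER stress element. Over all promoters of the table the shares were 1.62%, 3.49%, 7.93%, 5.27%, 18.1%, 1.88%, 12.5%, 7.24% and 37.9% in the order of the motifs above. In the 250 bases before the start alone the CHR shares were 10.1%, 11.5% and 10.4%, so that the gap between lower and higher genes was narrower, and for changes of 1 or more on the log2 scale, in the longer window, they were 12.7% for genes called higher and 12.3% for those called lower. In that shorter window the shares of genes called higher and lower were 2.64% and 0.710% for NF-kB, 5.18% and 2.23% for ISRE, 7.16% and 3.04% for AP-1 and 6.5% and 10.1% for E2F. These are counts of letters, with no test.

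**Figure D5:**
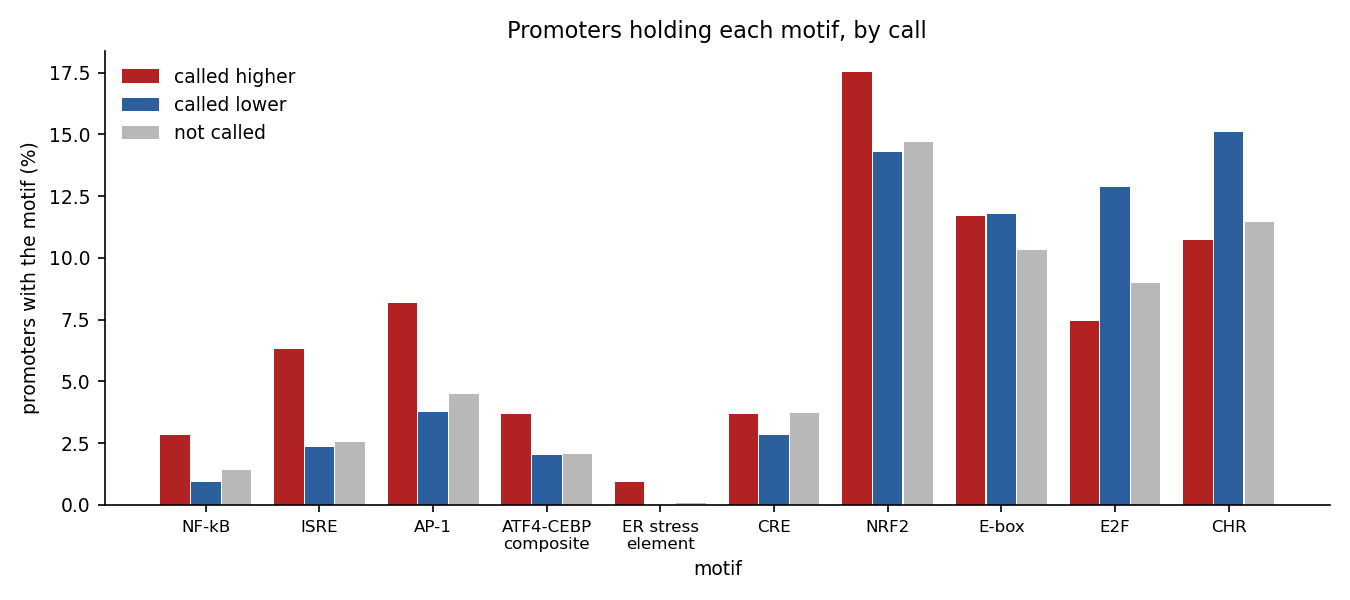
Share of promoters (vertical axis, %) that hold each of 10 motifs among genes called higher (red), called lower (blue) and not called (grey). NF-kB, ISRE, AP-1, ATF4-CEBP and ER stress element shares are highest in genes called higher, and E2F and CHR shares in genes called lower.

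The response was set against that to LD-F1_b vesicles only to show where it differed. In a direct test 54 genes (0.424%) were called between the vesicle groups, 52 higher and 2 lower with LD-F1. Among genes named above, Plk2 was higher with LD-F1 than with LD-F1_b vesicles by 0.60 on the log2 scale, Procr by 0.57, Gadd45b by 0.90 and Mcoln2 by 0.64, and Timp2 was lower by 0.71. No cytosolic synthetase, translocon, glycosylation, coat or proteasome gene named here was called in that test, which does not show that their levels were alike. The number of calls was 1 without LD-F1_b replicate 1, 0 without LD-F1_b replicate 2 and 1152 without LD-F1 replicate 1.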

How the data were processed

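Messenger RNA of bone-marrow-derived macrophages was purified with poly-T beads and sequenced, per the labels' protocols. The deposited file holds raw counts per gene for all 6 libraries, and 0 columns of per-sample values could not be matched to a sample. Per the submitters' processing notes, fastp, HISAT2 2.0.5, StringTie 1.3.3b, featureCounts 1.5.0-p3 and the build GRCm39 were used; the table itself carries C57BL/6NJ identifiers and positions. The sources used here do not give the strand setting or how reads with several matches were counted, so near-identical and overlapping genes are uncertain.

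Genes were kept with edgeR's filterByExpr (12740 of 41972 entries, 99.9% of the counts) and tested with the edgeR 4.0.16 quasi-likelihood F test in R 4.3.3, with TMM scaling, all 6 libraries in 1 fit (3 residual degrees of freedom) and Benjamini-Hochberg adjustment at 0.05. CPM values of genes are TMM-scaled and summed marker levels are per library total; standard errors were computed back from the F statistic. The test was checked on simulated counts. Limma 3.58.1, DESeq2 1.42.0, other scalings and filters, a gene length offset, a replicate block and leaving out each library were the alternatives.

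From called protein-coding genes with a symbol, at least 5 CPM on average and groups that did not overlap, the text names ranks 11 to 30 at each end, the 10 largest gains and losses in CPM and up to 4 members of each list. It also names genes at 0 in 1 group with at least 10 counts in each library of the other, and 5 entries that are not protein coding. Some members that these rules select are not reported here. The comparison and the lists were chosen with earlier results of these data known. Promoters came from a RefSeq table of build GRCm38.p6, matched by symbol, with no coordinates carried over between builds.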

Additional observations from a re-analysis of the deposited data

Results flagged for a closer look

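The genes below had a log2 difference between LD-F1 and LD-F1_b vesicles that passed the edgeR quasi-likelihood test at an adjusted p under 0.05, so that their response to the 2 kinds of vesicle differed. Both responses use the same PBS libraries, and the comparison given is the direct one.

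Higher with LD-F1 vesicles were the inflammatory genes Nos2 (2.63), Cxcl10 (2.26), Csf3 (1.86), Ptgs2 (1.61), Ccl5 (1.59), Cxcl2 (1.39), Cd40 (1.18), Acod1 (1.08), Traf1 (0.98) and Tnf (0.56). Interferon-response genes were higher as well, namely Cmpk2 (2.04), Ifit1 (2.01), Isg15 (1.80), Gbp2 (1.43), Oasl2 (1.34), Ifi205 (1.3), Rtp4 (1.22), Usp18 (1.11) and Xaf1 (1.06). The others were Phlda1 (1.28), Rhob (0.95), Gadd45b (0.90), Mcoln2 (0.64), Plk2 (0.60), Procr (0.57), Hmox1 (0.56) and Sqstm1 (0.52). Timp2 was lower, at -0.71. With 2 libraries in each group, 1 call was left without LD-F1_b replicate 1 and 0 without LD-F1_b replicate 2.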

How the results depend on the processing

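Between LD-F1 and PBS the number of genes called ranged from 1213 to 4497 when 1 library was left out, and was 1497 at an adjusted p under 0.01. It stayed between 1943 and 3081 with another scaling, filter, tool or length offset, or with only the groups compared. The share of higher genes among those called was 33.56% with library totals alone, in place of 53.53%. No named gene changed direction while called. The medians of 12 lists changed sign with library totals alone and those of 7 with the length offset. Of the 337 genes that the naming rule selects and that were called, 258 were called whichever library was left out. Between LD-F1 and LD-F1_b, 54 genes were called, and 97 with DESeq2, 112 with the length offset, 185 with no filter on low counts, 33 with only the groups compared and 29 at an adjusted p under 0.01. That number ranged from 0 to 1152 when 1 library was left out. The causes were not tested. The replicate numbers share only a number: the correlation of replicate differences was -0.0234 between LD-F1 and PBS, and with the replicate block 2706 genes were called. Depth limits genes near 3 counts, or about 0.2 CPM, and 2 libraries in each group limit the precision of every fold change.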

Other observations

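Runs of neighbouring genes called in 1 direction were found along the positions of the table and were chosen after their values were seen. On chromosome 6, 7 tested neighbours between 136313469 and 140962776 were called higher: Clec2d, Clec12a, Gabarapl1, Klra2, Magohb, Ybx3 and Smim10l1, which include genes of the natural killer receptor complex. On chromosome 2, 5 neighbours between 62136625 and 67902810 were higher (Rbms1, Tank, Psmd14, Ifih1 and Galnt3), and on chromosome 3, 5 between 150476335 and 150908051 (Pdlim5, Gbp5, Gbp7, Gbp3 and Gbp2). The guanylate-binding protein genes are close copies of each other, and how shared reads were counted is not known.

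Genes outside the naming rule, also chosen after their values were seen, included tissue factor (F3), at 1.57 and 1.49 CPM with LD-F1 vesicles and a log2 fold change of 3.19. Its level with PBS lay near the depth limit of about 0.2 CPM, so that the size of this rise is imprecise.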
